A study of Mus musculus with 9 samples.

Results

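Chemokines are small secreted proteins that steer migrating cells, and the genes described here are the mouse Cxcl and Ccl ligand genes and the Cxcr and Ccr receptor genes of a table of RNA-seq read counts. They were taken by the pattern of their gene symbols: Cxcl, Ccl, Cxcr or Ccr followed by a number, with an a, b or c allowed after a Ccl number. The pattern found 53 of the 24016 genes in the table, 37 ligands and 16 receptors. Of these, 33 (23 ligands and 10 receptors) had a mean of at least 0.5 CPM (reads of a gene scaled to a common library size) in a group and make up the set described here, and the other 20 are only counted or named. The receptor genes just inside that limit were Ccr7, Ccr9 and Ccr4, with highest group means of 0.623, 0.656 and 0.693 CPM, and the ligand Cxcl1 stood at 0.539 CPM. Just outside it were Ccl28 at 0.441, Cxcl3 at 0.345 and Ccl12 at 0.319 CPM.

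The libraries came from fetal mouse gut of the C57BL/6 strain, wild type and at age E14.5 (embryonic days), in 3 groups of 3. Epithelium and mesenchyme libraries were made from the separated tissue layers and carry no agent in the labels. The third group was whole intestine given Cyclopamine, a plant alkaloid that blocks Smoothened, the membrane protein that relays the Hedgehog signal. The study's design text describes 24 hours of transwell culture with or without the drug. The dose is not given, and whole intestine without the drug was not analysed here. A difference between treated whole intestine and a layer therefore holds the drug, the mixing of the layers and any handling of the layers together, and these cannot be told apart. Nothing in the labels says that replicates came from separate embryos or litters, so a p-value here weighs only library-to-library spread, which may be technical.

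A chemokine binds a G protein-coupled receptor on a migrating cell, which then moves toward the source of the ligand. Some pairs are almost exclusive, such as Cxcl12 with Cxcr4 or Cxcl13 with Cxcr5, whereas inflammatory receptors such as Ccr1 accept several ligands. In the fetal gut, Cxcl12 and Cxcr4 act in blood vessel formation, and Cxcl13 with Cxcr5 and Ccl20 with Ccr6 are known for gathering the cells that found Peyer's patches and later lymphoid follicles. Ccl25 draws Ccr9-bearing lymphocytes into the small intestine, and Ccl11, also called eotaxin, draws eosinophils through Ccr3.

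Promoter sequence of 5 members is shown because the results turn on these genes, which lie on both sides of the tissue boundary and of the treatment contrast. Each line gives the 250 bases before a transcription start from RefSeq on GRCm38.p6, read 5′ to 3′ on the gene's strand. The genes are Cxcl13 (chr5:95956689-95956938, plus strand), Ccl20 (chr1:83116516-83116765, plus strand), the second listed start of Ccl25 (chr8:4349338-4349587, plus strand), Cxcl10 (chr5:92348890-92349139, minus strand) and Cxcr4 (chr1:128592300-128592549, minus strand). Capitals mark matches, on either strand, to the TATA box letters TATAAA or to the consensus motif of NF-kB, whose 10 letters allow some alternatives.
Cxcl13: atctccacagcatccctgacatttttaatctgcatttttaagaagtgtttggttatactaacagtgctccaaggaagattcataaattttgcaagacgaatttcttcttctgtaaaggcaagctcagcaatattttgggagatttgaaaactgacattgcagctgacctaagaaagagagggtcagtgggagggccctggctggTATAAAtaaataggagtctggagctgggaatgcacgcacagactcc
Ccl20: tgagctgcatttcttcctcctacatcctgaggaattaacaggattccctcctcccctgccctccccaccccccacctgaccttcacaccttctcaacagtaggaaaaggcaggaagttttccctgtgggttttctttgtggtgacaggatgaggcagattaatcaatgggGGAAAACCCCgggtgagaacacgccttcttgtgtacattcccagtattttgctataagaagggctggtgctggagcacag
Ccl25: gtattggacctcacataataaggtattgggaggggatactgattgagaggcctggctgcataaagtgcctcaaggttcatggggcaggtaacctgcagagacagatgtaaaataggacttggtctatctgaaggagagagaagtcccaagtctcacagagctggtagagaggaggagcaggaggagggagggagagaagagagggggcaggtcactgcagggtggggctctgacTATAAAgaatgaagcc
Cxcl10: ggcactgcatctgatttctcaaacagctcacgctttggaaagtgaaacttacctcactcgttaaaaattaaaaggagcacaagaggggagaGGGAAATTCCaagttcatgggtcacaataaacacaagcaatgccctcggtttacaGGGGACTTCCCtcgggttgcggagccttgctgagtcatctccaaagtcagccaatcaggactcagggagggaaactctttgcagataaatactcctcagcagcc
Cxcr4: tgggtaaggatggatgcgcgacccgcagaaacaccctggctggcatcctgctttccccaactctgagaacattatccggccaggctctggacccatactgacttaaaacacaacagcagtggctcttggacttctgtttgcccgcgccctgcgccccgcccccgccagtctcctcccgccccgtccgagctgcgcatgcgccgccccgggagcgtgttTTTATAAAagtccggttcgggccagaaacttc
The RefSeq promoter table held 37 of the 53 member genes, 21 of them among the 33 described; Ccl11 and Ccl2 were not matched. The TATA box letters stood in the windows of Cxcl13, Ccl25, Cxcr4 and 7 other member genes, 10 of 37. By promoter they stood in 10 of 44 member windows and in 12.4% of all 32851 promoters. The first listed start of Ccl25, not printed here, held no match. NF-kB is a transcription factor that turns on many chemokine genes in inflamed cells. The NF-kB motif was found in 10 of 37 member genes, among them Ccl20, Cxcl10 (at 2 places, 1 of them overlapping matches), Cxcl1, Ccl9 and Ccr1. By promoter this motif stood in 10 of 44 member windows and in 7.25% of all promoters. Its form was chosen after other forms had been tried on these windows. The letters GACCACCCA, bound by the Gli factors of the Hedgehog pathway, were found in 0 of the 37 member genes and in 0.225% of all promoters. A match of letters is a description of the window and no evidence of binding.

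Library totals ranged from 9739394 to 26357115 counts, and 1 library stood apart. In mesenchyme replicate 1 the ribosomal RNA precursor Rn45s took 59.1% of all counts, where each of the other 8 gave it 0.112 to 1.19%. Once Rn45s and the rows Lars2 and Mir6236 were set aside, 3284702 counts were left in it and 14122486 to 26302836 in the others, so a member at 1 CPM rests on few reads there. In addition, 14 genes with at least 20 counts in each epithelium library and in mesenchyme replicates 2 and 3 had 0 counts in all 3 treated libraries, and all 14 also had 0 in mesenchyme replicate 1. A fit with a term for these 4 libraries sets treated intestine against mesenchyme replicate 1 alone. Its values are given below wherever they end a member's call against mesenchyme. Calls of marker genes and of other listed genes were not checked in this fit or in the other settings. The layer labels held: Epcam was at 845 ± 32.2 CPM in epithelium and 21.1 ± 1.46 CPM in mesenchyme (SD, n = 3 each, as for all groups here), and Pdgfra at 19.0 ± 17.3 and 570 ± 120 CPM. Gli1, a direct target of Hedgehog signaling, was at 215 ± 13.8 CPM in mesenchyme and 1.6 ± 0.866 CPM in treated intestine.

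Between the layers, chemokine genes were mostly mesenchymal. Of the 29 members with enough reads to test (21 ligands and 8 receptors), edgeR's quasi-likelihood test with Benjamini-Hochberg adjustment over all genes called 28 at an adjusted p under 0.05, where it called 69.6% of all 15699 genes tested. Higher in mesenchyme were 25 members, against a background of 35.1% of genes in that direction, and higher in epithelium were Ccl20, Ccl25 and Ccr4, against 34.6%. The median log2 difference of the tested members, epithelium minus mesenchyme, was -3.46, and that of all tested genes was 0.04; the members' median is the same with Cxcl13, which had no reads in epithelium, set at its bound. The exception was Ccl9. The values of the layers did not overlap for 28 of the 29, where 73.6% of tested genes did not overlap. Leaving out mesenchyme replicate 1 gave 30 called members (more members then had enough reads to test), with 3 of them higher in epithelium. In the authors' deposited table, which used another test, 25 of 50 members with an adjusted p were called between the layers, 23 of them higher in mesenchyme, where 44.2% of its genes were called and 23.4% were higher in mesenchyme. The layer differences of Ccl24, Ccl27a, Ccl27b and Ccr4 were not called there.

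Summed over all ligand genes, the libraries held 34.5 to 54.1 CPM in epithelium, 251 to 317 CPM in mesenchyme and 135 to 147 CPM in treated intestine. The receptor genes summed to 7.06 to 11.7, 128 to 140 and 81.6 to 93.7 CPM in the same order. Cxcr4 alone made up 71.3 to 92.2% of the receptor sum in every library. Per kilobase of transcript, the scale on which genes can be compared, mesenchyme held most Cxcr4 (68.7 CPM per kb), then Ccl11 (55.6), Cxcl12 (25.2), Cxcl16 (11.8) and Ccl2 (8.04). In epithelium the order was Cxcl16 (5.98 CPM per kb), Ccl20 (5.64), Ccl25 (5.49) and Cxcr4 (3.61), and the first 3 lie closer together than the spread of Ccl20 between its libraries. Transcript lengths were available for 32 of these 33 members.

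**Figure D1:**
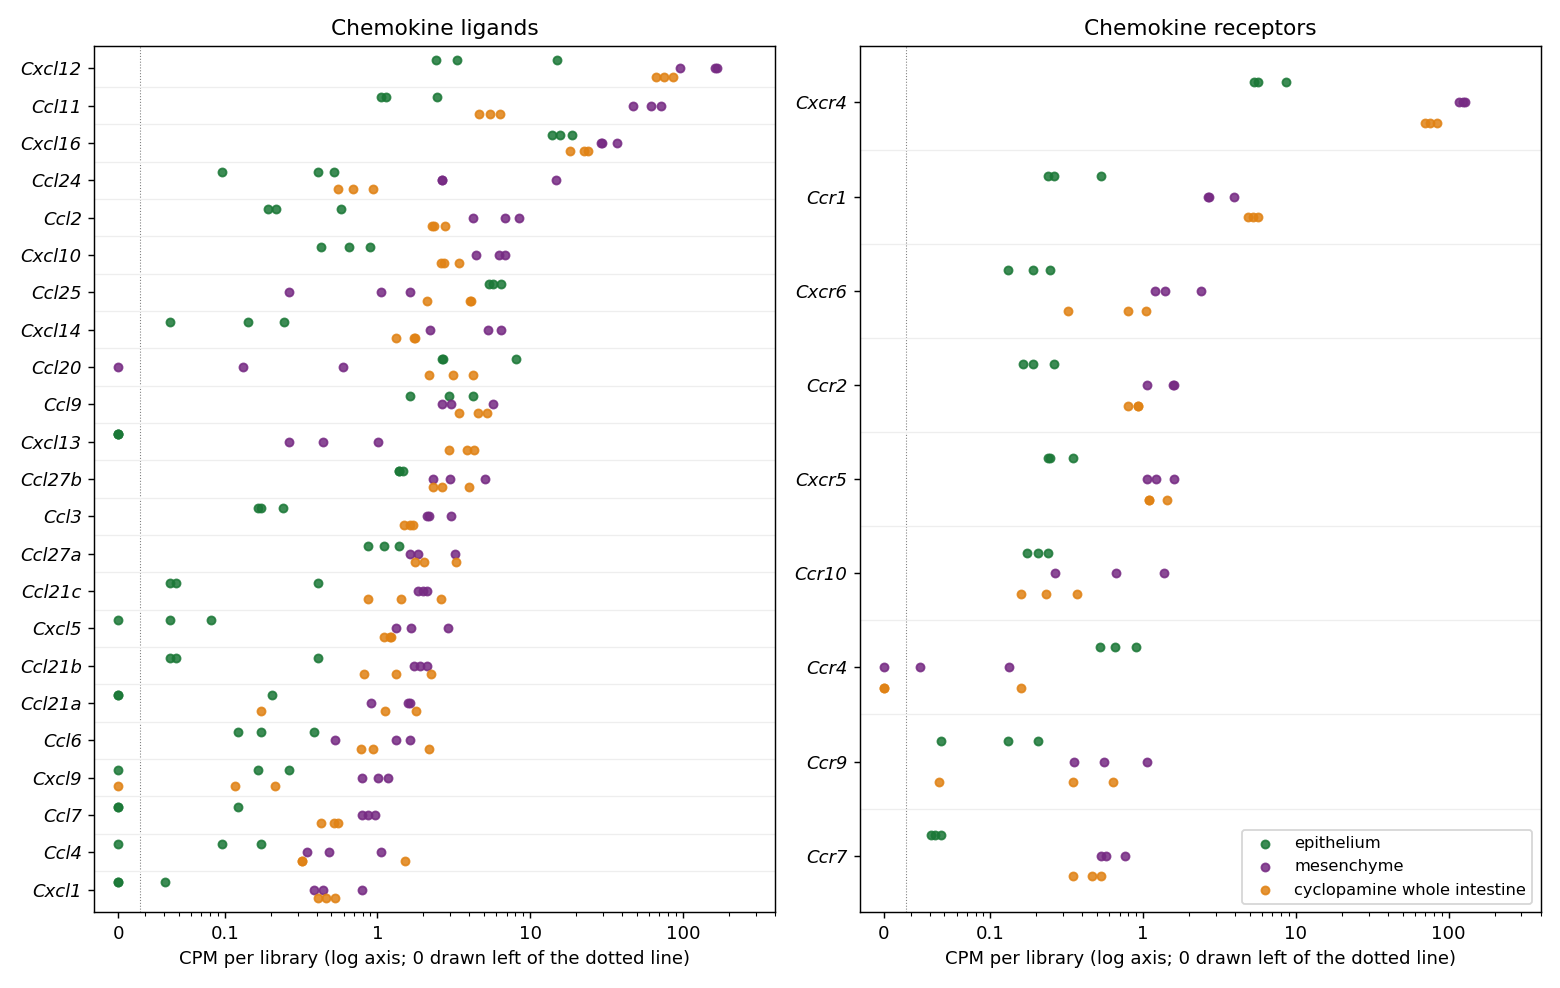
CPM of 32 members in each library (horizontal log axis, with 0 drawn left of the dotted line), ligands on the left and receptors on the right, 3 points per group and colored by group. Cxcl12, Ccl11 and Cxcr4 lie far to the right in mesenchyme, Ccl20, Ccl25 and Ccr4 lie higher in epithelium, and Cxcl13 is the ligand whose treated libraries lie to the right of both layers with 0 counts in epithelium.

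**Figure D2:**
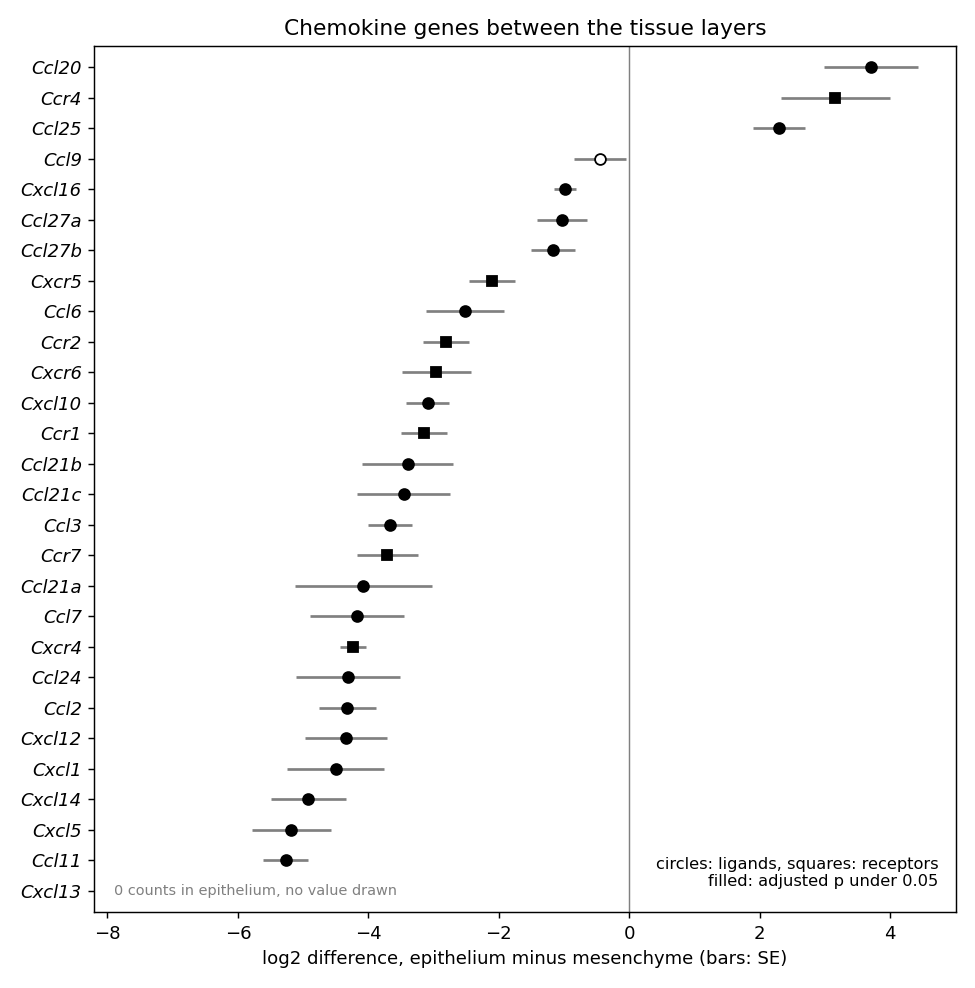
The log2 difference in level, epithelium minus mesenchyme, with its SE for 27 of the 29 tested members, ordered by size; circles are ligands, squares receptors, and filled symbols passed an adjusted p of 0.05. Only Ccl20, Ccr4 and Ccl25 lie right of 0, Ccl9 is open, and Cxcl13 is marked without a value because it had 0 counts in epithelium.

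In treated whole intestine, 10 of the 29 tested members differed from mesenchyme in the edgeR test, where 41.2% of all genes did. Lower in treated intestine were 7 members (Ccl11, Ccl24, Cxcl14, Ccl2, Cxcl10, Cxcr4 and Cxcl16), with 20.5% of all genes in that direction, and higher were Ccl20, Cxcl13 and Ccl25, with 20.8%. The median log2 difference, treated minus mesenchyme, was -0.43 over the members and -0.02 over all genes. For 17 of the 29 the treated and mesenchyme values did not overlap, where 54.8% of tested genes did not, so lack of overlap was common. The count was 6 without treated replicate 1 and also 6 without treated replicate 2, 15 without epithelium replicate 1, and 5 with the term for the 4 libraries. In the authors' deposited table, 7 of 49 members were called against mesenchyme, 4 of them lower in treated intestine, where 19.5% of its genes were called and 9.63% were lower. These 4 were Ccl11, Ccl2, Cxcr4 and Ccl28, the last outside the described set. The falls of Ccl24, Cxcl14, Cxcl10 and Cxcl16 were not called there.

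Against epithelium, treated intestine differed in 24 of the 29 members, where 61.9% of all genes did. Higher were 23, with 32.1% of all genes in that direction, and Ccr4 was lower, with 29.8%. The median log2 difference, treated minus epithelium, was 2.86, and -0.02 over all genes. For 25 of the 29 the treated and epithelium values did not overlap, where 77.7% of tested genes did not. A whole intestine contains the mesenchyme, and the part of the mixing of layers in these higher values was not tested. The treated libraries enter both contrasts, so the 2 counts are not independent. A level outside both layers, with the larger of the 2 p-values adjusted over all genes, was called for 1 of 29 members, Cxcl13, where 5.07% of all genes were called, 1.24% above both layers and 3.83% below both. With the term for the 4 libraries, 17 members were called against epithelium, all of them higher in treated intestine.

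Marker gene lists were summed in the same libraries. The epithelium list summed to 41.3% of its epithelium level in treated intestine. The mesenchymal fibroblast list stood at 39.0% of its mesenchyme level, the lymphatic endothelium list at 42.1%, endothelium at 57.6%, macrophage at 67.3%, smooth muscle at 77.4% and enteric neural cells at 78.0%. Some lists were higher in treated intestine: the erythroid list summed to 164 to 291 CPM in mesenchyme and 521 to 658 CPM in treated intestine (5 of 7 tested genes higher), and the mesothelium list to 38.6 to 50.3 and 48.0 to 102 CPM (of 5 tested, 2 higher and 1 lower). Within the 4 lymphatic genes, 1 was higher and 2 were lower than in mesenchyme. Over all genes tested, 20.8% were higher and 20.5% lower in treated intestine than in mesenchyme. In bulk samples like these, fewer cells of a type and less RNA per cell cannot be told apart. Among the 2244 genes called at least 8-fold higher in mesenchyme, the median log2 difference, treated minus mesenchyme, was -0.68 with quartiles of -1.23 and -0.17; 31.3% of them were called lower in treated intestine and 1.6% higher. The 18 members among these genes had a median of -0.62, 6 of them called lower and 1 higher. The same mesenchyme libraries enter the choice of the 2244 genes and this difference, so the difference may lean low in the set. Ranks of single members within the set, given below, carry the same limit.

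**Figure D3:**
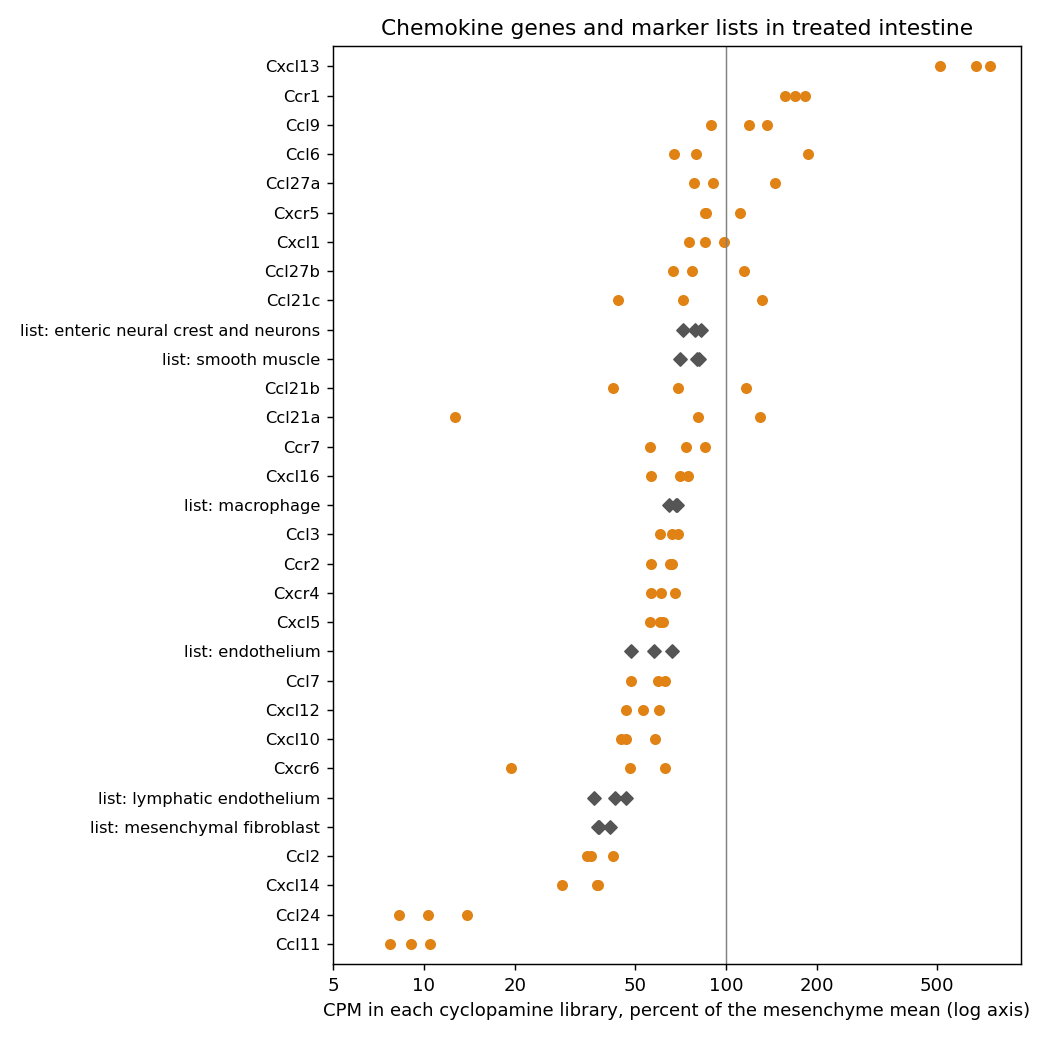
CPM in each of the 3 treated libraries as a percentage of the mesenchyme mean (horizontal log axis), for members not higher in epithelium (orange circles) and for summed marker lists (gray diamonds), ordered by their mean. Ccl11 and Ccl24 lie near 10%, left of every list, most members lie among the lists between 39.0% and 78.0% or above, and Cxcl13 lies at 511 to 752%.

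The most abundant pair was Cxcl12 and its receptor. Cxcl12 was at 163, 96.0 and 167 CPM in the mesenchyme libraries (replicates 1 to 3, as in all such lists), at 15.1, 3.31 and 2.43 CPM in epithelium and at 75.7, 66.5 and 85.6 CPM in treated intestine. Each treated value lay between the layers, and epithelium replicate 1 was well above the other epithelium libraries. That library also held most fibroblast marker RNA, 9.31% of the mesenchyme level against 2.58% and 1.79% in the others, and Cxcl12 stood at 10.6%, 2.33% and 1.71% of its mesenchyme level in the same libraries; the part of such RNA in the epithelium values was not tested. The log2 difference between layers was -4.34 ± 0.63 (SE; adjusted p = 0.000178), and -5.70 without epithelium replicate 1. Against mesenchyme, treated intestine differed by -0.90 ± 0.54 (adjusted p = 0.209), and without epithelium replicate 1, whose spread enters the shared error, by -0.88 with an adjusted p of 0.014.

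Cxcr4 gave 129, 125 and 117 CPM in mesenchyme, 8.63, 5.63 and 5.30 CPM in epithelium and 75.7, 70.2 and 84.2 CPM in treated intestine. The 3 groups did not overlap, and the replicates within each were close. The layer difference was -4.24 ± 0.20 on the log2 scale (adjusted p = 4.56e-07), and treated intestine was lower than mesenchyme by -0.69 ± 0.17 (adjusted p = 0.0118). That fall misses the threshold without treated replicate 1 (-0.66, adjusted p = 0.0611) or without treated replicate 2 (-0.61, adjusted p = 0.0692). At 61.9% of its mesenchyme level, Cxcr4 lay between the endothelium and macrophage lists. Ackr3, the atypical receptor that scavenges Cxcl12, was at 63.3 ± 9.21 CPM in mesenchyme, 1.89 ± 0.606 CPM in epithelium and 40.2 ± 4.04 CPM in treated intestine.

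The eosinophil attractants Ccl11 and Ccl24 had the largest falls against mesenchyme among the tested members. Ccl11 was at 46.9, 61.8 and 71.9 CPM in mesenchyme, at 2.45, 1.13 and 1.05 CPM in epithelium and at 6.32, 5.46 and 4.65 CPM in treated intestine. The lowest mesenchyme library stood far above every treated library, and every treated library above every epithelium library. Treated intestine was lower than mesenchyme by -3.47 ± 0.30 on the log2 scale (adjusted p = 4.24e-05), which is 9.1% of the mesenchyme mean, and higher than epithelium by 1.81 ± 0.32 (adjusted p = 0.0009), or 2.42 without epithelium replicate 1. The fall against mesenchyme passed the threshold in every setting run, with -3.10 (adjusted p = 0.00027) with the term for the 4 libraries. Of the 2244 strongly mesenchymal genes, 2.18% (49 genes) fell further than Ccl11. Between layers its log2 difference was -5.27 ± 0.34 (adjusted p = 1.48e-06), and -5.86 without epithelium replicate 1.

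Ccl24, the eotaxin made largely by macrophages, was at 2.65, 14.7 and 2.64 CPM in mesenchyme, at 0.409, 0.523 and 0.0954 CPM in epithelium and at 0.691, 0.929 and 0.552 CPM in treated intestine. Mesenchyme replicate 2 stood apart from its group, and the treated values overlapped no mesenchyme value. The summed macrophage list was highest in the same library, with 356 CPM against 184 and 248 CPM in the other mesenchyme libraries; its part in the Ccl24 value was not tested. The log2 difference, treated minus mesenchyme, was -3.28 ± 0.74 (adjusted p = 0.00721), -1.87 without mesenchyme replicate 2 (adjusted p = 0.0211) and -1.88 with the term for the 4 libraries (adjusted p = 0.249). Against epithelium it was 1.03 ± 0.86 (adjusted p = 0.321), and between layers -4.31 ± 0.80 (adjusted p = 0.00088), or -2.91 without mesenchyme replicate 2. Their receptor Ccr3 stayed below 0.5 CPM in every group.

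The monocyte attractants Ccl2 and Ccl7 share the receptor Ccr2, and in the GRCm38 gene table the 2 genes and Ccl11 lie side by side on chromosome 11. Ccl2 was at 4.24, 6.88 and 8.49 CPM in mesenchyme, 0.573, 0.218 and 0.191 CPM in epithelium and 2.34, 2.26 and 2.76 CPM in treated intestine. The groups did not overlap. Ccl2 was lower in treated intestine than in mesenchyme by -1.46 ± 0.35 on the log2 scale (adjusted p = 0.00971), by -1.38 without treated replicate 1 (adjusted p = 0.0512) and by -0.78 with the term for the 4 libraries (adjusted p = 0.237). Its level there, 37.5% of mesenchyme, was near that of the fibroblast list. Between layers Ccl2 differed by -4.32 ± 0.43 (adjusted p = 1.53e-05), or by -5.07 without epithelium replicate 1.

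Ccl7 was at 0.794, 0.970 and 0.870 CPM in mesenchyme, at 0.123, 0 and 0 CPM in epithelium and at 0.425, 0.523 and 0.552 CPM in treated intestine. Here too no group overlapped another, and the difference of -0.83 ± 0.53 between treated intestine and mesenchyme did not pass (adjusted p = 0.23). The layers differed by -4.18 ± 0.72 (adjusted p = 0.000547), and by -7.15 without epithelium replicate 1, which held all 3 epithelium reads; the latter value, against libraries at 0, depends on the prior count of the fit. Ccr2, the receptor of both, was at 1.06, 1.59 and 1.57 CPM in mesenchyme, 0.164, 0.262 and 0.191 CPM in epithelium and 0.797, 0.929 and 0.920 CPM in treated intestine. It was higher in mesenchyme than in epithelium (log2 difference -2.81 ± 0.35, adjusted p = 6.53e-05), and its treated value differed from mesenchyme by -0.74 ± 0.30 (adjusted p = 0.0777), or by -0.80 without mesenchyme replicate 1 (adjusted p = 0.0468).

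Ccr1 is a receptor of the macrophage inflammatory ligands. It was at 2.65, 3.92 and 2.68 CPM in mesenchyme, 0.532, 0.262 and 0.239 CPM in epithelium and 5.21, 5.63 and 4.83 CPM in treated intestine. Every treated library lay above every mesenchyme library, and 54.8% of tested genes likewise had no overlap of these groups. The log2 difference of 0.73 ± 0.29 for Ccr1 missed the threshold (adjusted p = 0.0705). It passed without epithelium replicate 1 (0.76, adjusted p = 0.0371), without mesenchyme replicate 2 (0.97, adjusted p = 0.0433) and in a fit of the 6 libraries compared (0.77, adjusted p = 0.0422). Of the strongly mesenchymal genes, 3.16% (71 genes) had a larger difference in treated intestine. Ccr1 was also higher in mesenchyme than in epithelium (-3.15 ± 0.35, adjusted p = 3.22e-05).

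The ligand Ccl3 gave 2.12, 3.04 and 2.19 CPM in mesenchyme, 0.164, 0.174 and 0.239 CPM in epithelium and 1.49, 1.63 and 1.70 CPM in treated intestine. It was higher in mesenchyme than in epithelium (-3.67 ± 0.34, adjusted p = 9.82e-06), and treated intestine lay below mesenchyme without passing (-0.64 ± 0.28, adjusted p = 0.092). Its neighbor on chromosome 11, Ccl4, had too few reads to test, with 1.06, 0.485 and 0.348 CPM in mesenchyme, 0, 0.174 and 0.0954 CPM in epithelium and 0.319, 1.51 and 0.322 CPM in treated intestine.

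Ccl6 and Ccl9, further Ccr1 ligands found in rodents, did not share a pattern. Ccl6 was at 0.530, 1.32 and 1.64 CPM in mesenchyme, 0.123, 0.174 and 0.382 CPM in epithelium and 2.18, 0.929 and 0.782 CPM in treated intestine, so that epithelium lay below both other groups, by -2.52 ± 0.60 against mesenchyme (adjusted p = 0.00411) and with treated intestine higher by 2.51 ± 0.59 (adjusted p = 0.00474), or 3.14 without epithelium replicate 3. Ccl9 was at 2.65, 3.04 and 5.71 CPM in mesenchyme, 1.64, 2.92 and 4.2 CPM in epithelium and 5.21, 4.53 and 3.40 CPM in treated intestine. The Ccl9 values of all 3 groups overlapped. Its log2 difference between layers, -0.45 ± 0.40, did not pass (adjusted p = 0.329), nor did that between treated intestine and mesenchyme, 0.13 ± 0.39 (adjusted p = 0.806); for Ccl6 the latter was -0.01 ± 0.49 (adjusted p = 0.992).

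Beside these myeloid genes, the few macrophage markers called against mesenchyme went in both directions. Csf1r, the receptor that macrophages need to survive, was at 84.2 ± 12.2 CPM in mesenchyme and 27.5 ± 2.4 CPM in treated intestine, whereas Mrc1, a scavenging receptor of tissue macrophages, was at 9.52 ± 1.07 and 20.3 ± 2.17 CPM. Both differences passed the edgeR test (log2 -1.62 ± 0.27, adjusted p = 0.00165, and 1.09 ± 0.19, adjusted p = 0.002). Ptprc, which marks all white blood cells, fell from 17.9 ± 9.15 to 6.49 ± 1.36 CPM (-1.52 ± 0.49, adjusted p = 0.032). Of the 12 macrophage markers in the table none was at 0 in every library and 11 were tested. Against mesenchyme, where 20.8% of all genes were higher and 20.5% lower in treated intestine, 1 of these markers was higher and 2 were lower. Their sum ran from 184 to 356 CPM in mesenchyme, 170 to 181 CPM in treated intestine and 14.8 to 34.0 CPM in epithelium, and its part in the receptor values was not tested.

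Among the lymphoid-organizing chemokines, Cxcl13 was the member called above both layers in treated intestine. It had 0 counts in all 3 epithelium libraries, 1, 10 and 29 counts in mesenchyme (0.265, 0.441 and 1.01 CPM) and 55, 74 and 84 counts in treated intestine (2.92, 4.30 and 3.86 CPM). The lowest treated library was well above the highest mesenchyme library. Treated intestine was 6.46-fold higher than mesenchyme in mean CPM (10.5-fold without mesenchyme replicate 3), with a log2 difference of 2.46 ± 0.45 (adjusted p = 0.00437). Against epithelium it was at least 84.1-fold higher, with epithelium set at a floor of 3 counts over the group (0.0439 CPM), and mesenchyme was at least 13-fold higher on the same floor (adjusted p = 0.000455), or 8.04-fold without mesenchyme replicate 3. Floors of this kind cover counting error only.

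The call against mesenchyme held in every setting run, with adjusted p-values up to 0.0245. The difference was 3.18 without mesenchyme replicate 3, the library with most Cxcl13 in its group. It was 3.77 with the term for the 4 libraries, a value set against mesenchyme replicate 1 alone, which had 1 count of Cxcl13. The stricter call above both layers (adjusted p = 0.0243) was lost with that term (adjusted p = 0.0628), without mesenchyme replicate 2 (0.0713) and without treated replicate 1, 2 or 3 (0.0814, 0.099 and 0.106). In the set of 2244 strongly mesenchymal genes, a single gene had a larger log2 difference in treated intestine than Cxcl13.

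Its receptor Cxcr5 was at 1.59, 1.06 and 1.22 CPM in mesenchyme, 0.245, 0.349 and 0.239 CPM in epithelium and 1.43, 1.10 and 1.10 CPM in treated intestine. Treated and mesenchyme values overlapped, with a log2 difference of -0.01 ± 0.31 (adjusted p = 0.979), and the layers differed by -2.11 ± 0.35 (adjusted p = 0.00042). Exons of Cxcr5 overlap those of Bcl9l on the opposite strand, and without a stated strand setting their reads cannot be told apart. Genes of the lymphoid cells that carry Cxcr5 were low: Il7r was at 0.961 ± 0.614 CPM in mesenchyme and 0.62 ± 0.167 CPM in treated intestine, Cd4 at 0.871 ± 0.363 and 1.11 ± 0.344 CPM, and Cd3e at 0.0147 ± 0.0255 and 0.0153 ± 0.0266 CPM. Of the 13 genes in the lymphocyte and innate lymphoid list 5 were tested, 1 of them higher and 1 lower in treated intestine than in mesenchyme. The shares of all genes in that comparison were 20.8% higher and 20.5% lower. The list's sum, 93.8 to 143 CPM in mesenchyme and 207 to 231 CPM in treated intestine, was mostly Id2 (111 ± 26.4 and 212 ± 12.1 CPM), a gene also read in epithelium at 75.4 ± 20.2 CPM; its part in the Cxcl13 value was not tested.

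The ligands Ccl21a, Ccl21b and Ccl21c, made by lymphatic vessels in adults, are near-identical copies whose reads cannot be assigned with certainty, so their values are best read together. In mesenchyme Ccl21a was at 1.59, 1.63 and 0.905 CPM, Ccl21b at 2.12, 1.90 and 1.74 CPM and Ccl21c at 2.12, 1.98 and 1.84 CPM. Epithelium held 0.205, 0 and 0 CPM of Ccl21a and 0.409, 0.0436 and 0.0477 CPM of each of the others. Treated intestine held 1.12, 0.174 and 1.79 CPM of Ccl21a, 1.33, 0.813 and 2.25 CPM of Ccl21b and 1.43, 0.871 and 2.62 CPM of Ccl21c. In all 3 copies treated replicate 2 was lowest and treated replicate 3 highest, and the treated range enclosed the mesenchyme range.

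All 3 copies were higher in mesenchyme than in epithelium, with log2 differences of -4.08 ± 1.05, -3.40 ± 0.69 and -3.46 ± 0.71 (adjusted p = 0.0062, 0.00165 and 0.00167). Without epithelium replicate 1 these were -7.72 (against Ccl21a libraries at 0, so dependent on the prior count), -5.25 and -5.31. Against mesenchyme, the treated differences of -0.34 ± 0.78, -0.35 ± 0.57 and -0.24 ± 0.58 did not pass (adjusted p = 0.752, 0.651 and 0.761). Their receptor Ccr7, which guides dendritic cells and naive T cells, was at 0.530, 0.573 and 0.766 CPM in mesenchyme, 0.0409, 0.0436 and 0.0477 CPM in epithelium and 0.531, 0.348 and 0.460 CPM in treated intestine. The layers did not overlap (-3.71 ± 0.47, adjusted p = 7.7e-05), and treated and mesenchyme values did (-0.53 ± 0.35, adjusted p = 0.246).

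Ccl20 and Ccl25 were the epithelial ligands. Ccl20 was at 2.66, 8.11 and 2.67 CPM in epithelium, 0, 0.132 and 0.592 CPM in mesenchyme and 4.25, 3.14 and 2.16 CPM in treated intestine. Epithelium replicate 2 stood above the other libraries, and the treated values lay within the epithelium range or just under it. The layer difference was 3.71 ± 0.72 on the log2 scale (adjusted p = 0.00121), 2.95 without epithelium replicate 2 and 5.26 without mesenchyme replicate 3. Treated intestine was higher than mesenchyme by 3.21 ± 0.73 (adjusted p = 0.00699), a call that is lost with the term for the 4 libraries (9.0, adjusted p = 0.0706), where mesenchyme replicate 1 had 0 counts. It was 4.76 without mesenchyme replicate 3 (adjusted p = 0.00824).

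At 71.0% of its mean epithelium level, Ccl20 in treated intestine stood above the epithelium list (41.3%), and its libraries ran from 48.2 to 94.8%; against epithelium the log2 difference was -0.50 ± 0.56 (adjusted p = 0.461) and 0.34 without epithelium replicate 2. Ccl20's receptor Ccr6 stayed under 0.5 CPM. Ccl25 was at 6.42, 5.67 and 5.34 CPM in epithelium, 0.265, 1.06 and 1.64 CPM in mesenchyme and 4.04, 4.12 and 2.12 CPM in treated intestine. The 3 groups did not overlap, and treated intestine lay in between at 58.9% of the epithelium mean.

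Between layers Ccl25 differed by 2.29 ± 0.40 (adjusted p = 0.00066). Treated intestine was higher than mesenchyme by 1.52 ± 0.41 (adjusted p = 0.0152), a call that is lost without treated replicate 1 (1.46, adjusted p = 0.0505) or without treated replicate 2 (1.42, adjusted p = 0.0509); with the term for the 4 libraries it was 3.66 (adjusted p = 0.0143). Against epithelium it differed by -0.77 ± 0.36 (adjusted p = 0.0909), and by -0.75 without mesenchyme replicate 1 (adjusted p = 0.0442). Exons of Ccl25 overlap Elavl1 on the opposite strand, so its level is uncertain. Its receptor Ccr9 had too few reads to test, with 1.06, 0.353 and 0.557 CPM in mesenchyme, 0.205, 0.131 and 0.0477 CPM in epithelium and 0.637, 0.348 and 0.046 CPM in treated intestine.

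**Figure D4:**
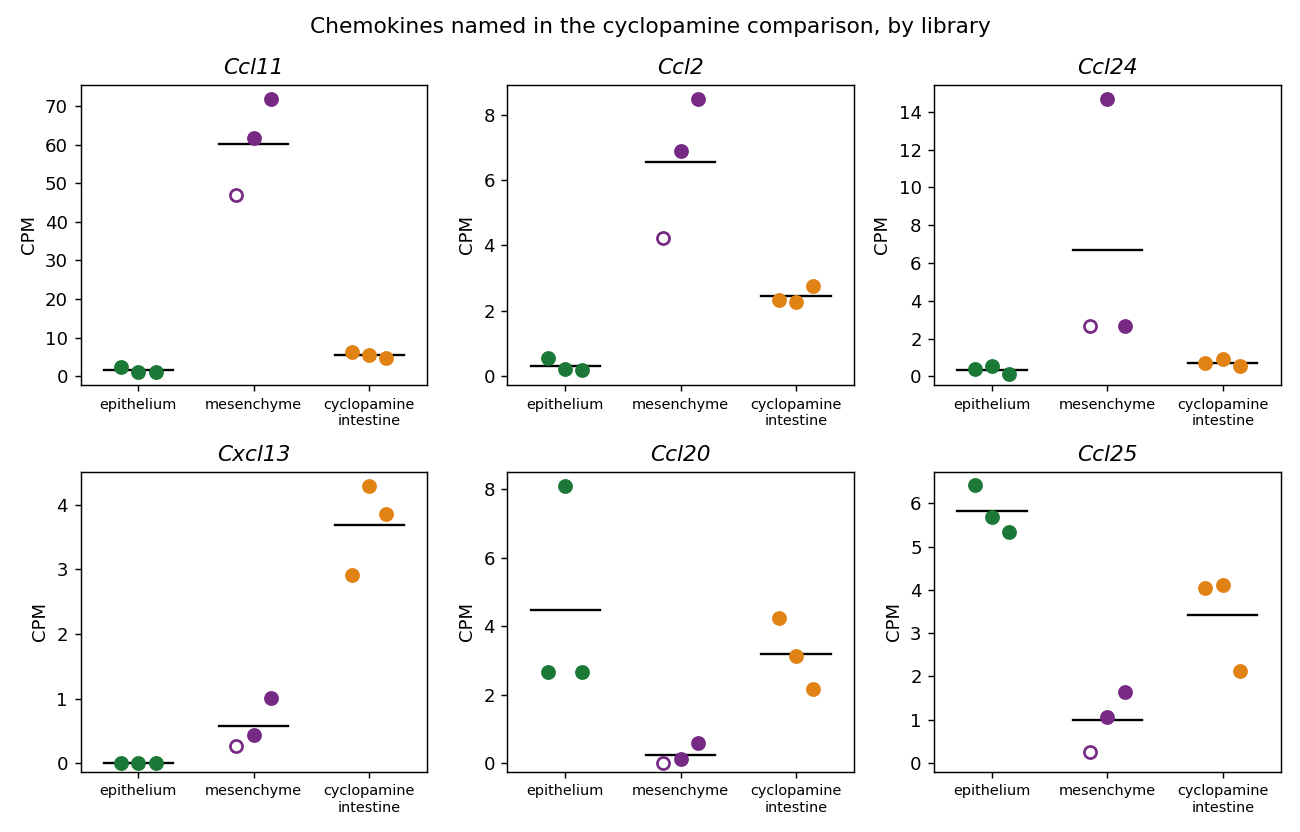
CPM by library for 6 ligands that differed between treated intestine and mesenchyme, in epithelium, mesenchyme and treated whole intestine; points are libraries, bars are group means, and the open point is mesenchyme replicate 1, the library rich in Rn45s. Ccl11, Ccl2 and Ccl24 lie lower in treated intestine than in mesenchyme, and Cxcl13 lies above both layers. Ccl20 lies nearer to epithelium, and Ccl25 lies between the layers.

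**Figure D5:**
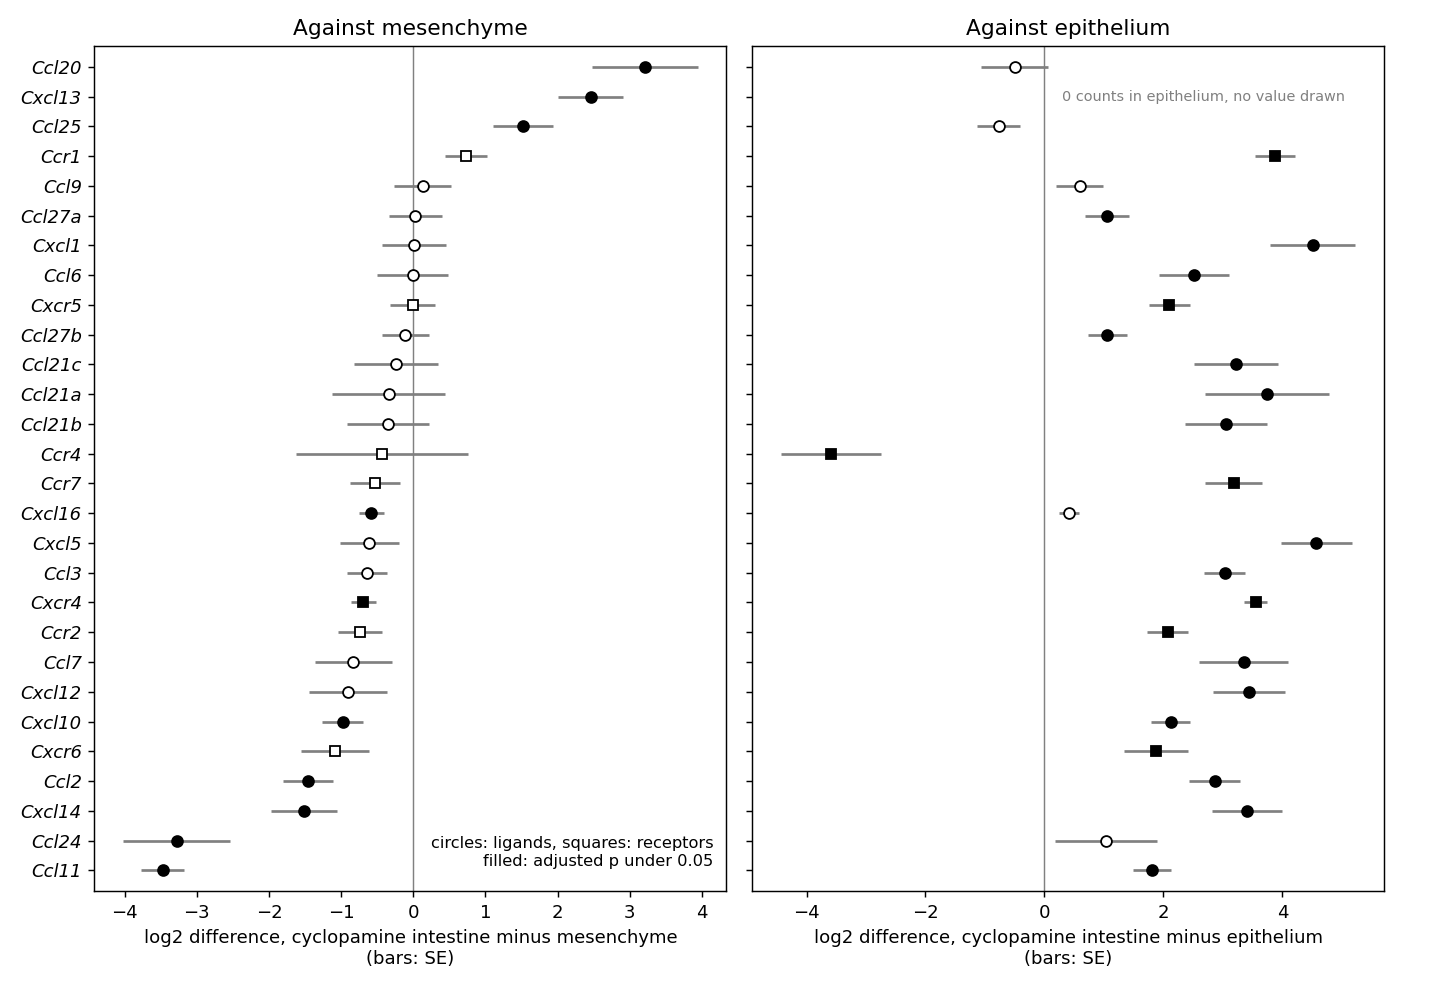
The log2 difference in level of treated intestine from mesenchyme (left) and from epithelium (right) for 28 of the 29 tested members, with SE bars; circles are ligands, squares receptors, and filled symbols passed an adjusted p of 0.05. On the left Ccl11 and Ccl24 lie below -3 and Ccl20 and Cxcl13 above 2. On the right most members lie above 0, and no value is drawn for Cxcl13. Ccl20, Ccl25 and Ccr4 lie below 0 there, and of these only Ccr4 is filled.

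Ccr4, a receptor of skin-homing and regulatory T cells, was the epithelial receptor. It had 22, 15 and 11 counts in epithelium (0.900, 0.654 and 0.525 CPM), 0, 3 and 1 counts in mesenchyme (0, 0.132 and 0.0348 CPM) and 3, 0 and 0 counts in treated intestine (0.159, 0 and 0 CPM). Epithelium overlapped neither other group. The layer difference was 3.16 ± 0.83 (adjusted p = 0.00693), or 4.26 without mesenchyme replicate 2. Treated intestine was lower than epithelium by -3.59 ± 0.84 (adjusted p = 0.00444), although this rests on few reads. The difference was -2.90 without treated replicate 3 and -6.80 without treated replicate 1, the latter with treated libraries at 0 and so dependent on the prior count. With the term for the 4 libraries it was 0.18 and did not pass, a value that rests on mesenchyme replicate 1 with 0 counts. The Ccr4 ligand Ccl17 had 0 counts in every library, and Ccl22 stayed below 0.5 CPM. The Ccr4 level in treated intestine was 7.66% of that in epithelium, against 41.3% for the epithelium list.

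The other epithelial-type chemokines were read in both layers. Ccl27a, a near copy of Ccl27b that overlaps Il11ra1 on the opposite strand, was at 1.85, 3.22 and 1.64 CPM in mesenchyme, 1.10, 0.872 and 1.38 CPM in epithelium and 1.75, 3.25 and 2.02 CPM in treated intestine. Ccl27b was at 5.03, 3.00 and 2.30 CPM, 1.39, 1.48 and 1.38 CPM and 2.66, 3.95 and 2.30 CPM in the same order. Both were higher in mesenchyme than in epithelium (-1.03 ± 0.38, adjusted p = 0.0354, and -1.17 ± 0.34, adjusted p = 0.0123). For Ccl27a that call is lost without epithelium replicate 1 (-1.09, adjusted p = 0.0651), without epithelium replicate 2 (-0.93, adjusted p = 0.0974) and without mesenchyme replicate 2 (-0.61, adjusted p = 0.206). Treated and mesenchyme values of both overlapped (0.03 ± 0.37, adjusted p = 0.962, and -0.11 ± 0.33, adjusted p = 0.809). Their receptor Ccr10 had too few reads to test, with 0.265, 1.37 and 0.661 CPM in mesenchyme, 0.205, 0.174 and 0.239 CPM in epithelium and 0.159, 0.232 and 0.368 CPM in treated intestine.

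Cxcl16, a ligand that is also made as a membrane-bound form, was read well in both layers. It was at 29.4, 37.2 and 29.3 CPM in mesenchyme, 18.8, 15.8 and 13.8 CPM in epithelium and 23.8, 22.6 and 18.1 CPM in treated intestine. Mesenchyme lay above the other groups, and treated intestine overlapped epithelium. The layers differed by -0.99 ± 0.17 (adjusted p = 0.00066), and treated intestine was lower than mesenchyme by -0.58 ± 0.17 (adjusted p = 0.0249). That call is lost with the term for the 4 libraries (-0.45, adjusted p = 0.164) and without any of epithelium replicate 2, mesenchyme replicate 2 or treated replicates 1, 2 and 3 (-0.43 to -0.62, adjusted p from 0.052 to 0.119). Cxcl16 overlaps Zmynd15 on the opposite strand, so its reads may include that gene's.

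Its receptor Cxcr6, found on some T cells and innate lymphoid cells, was at 2.38, 1.19 and 1.39 CPM in mesenchyme, 0.245, 0.131 and 0.191 CPM in epithelium and 0.797, 1.05 and 0.322 CPM in treated intestine. The groups did not overlap. Its layer difference was -2.96 ± 0.53 (adjusted p = 0.000742), and that of treated intestine from mesenchyme, -1.08 ± 0.47, did not pass (adjusted p = 0.0914).

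The interferon-induced ligands Cxcl9 and Cxcl10 bind Cxcr3, which stayed below 0.5 CPM. Cxcl10 was at 6.89, 6.26 and 4.42 CPM in mesenchyme, 0.900, 0.654 and 0.429 CPM in epithelium and 3.40, 2.73 and 2.62 CPM in treated intestine. The 3 groups did not overlap. It was higher in mesenchyme than in epithelium (-3.09 ± 0.33, adjusted p = 2.29e-05) and lower in treated intestine than in mesenchyme (-0.98 ± 0.29, adjusted p = 0.0245). The second call is lost without any of mesenchyme replicates 1 and 2 or treated replicates 1, 2 and 3 (-0.84 to -1.08, adjusted p from 0.0514 to 0.104). Cxcl9 had too few reads to test, with 0.794, 1.01 and 1.18 CPM in mesenchyme, 0.164, 0.262 and 0 CPM in epithelium and 0.212, 0.116 and 0 CPM in treated intestine, so that mesenchyme lay above both other groups.

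Cxcl14, a conserved ligand made by stromal and epithelial cells, was at 5.30, 2.20 and 6.44 CPM in mesenchyme, 0.245, 0.0436 and 0.143 CPM in epithelium and 1.75, 1.74 and 1.33 CPM in treated intestine. The groups did not overlap, with mesenchyme replicate 2 nearest to the treated libraries. The layer difference was -4.92 ± 0.58 (adjusted p = 4.92e-05), or -5.62 without epithelium replicate 1. Treated intestine was lower than mesenchyme by -1.51 ± 0.46 (adjusted p = 0.0253), at 34.6% of its level, and this call is lost with the term for the 4 libraries (-1.72, adjusted p = 0.0718), without mesenchyme replicate 3 (-1.10, adjusted p = 0.128) and without treated replicate 1, 2 or 3 (-1.35 to -1.55, adjusted p from 0.0749 to 0.0976).

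The neutrophil attractants Cxcl1 and Cxcl5 signal through Cxcr2, which was below 0.5 CPM. Cxcl5 was at 2.91, 1.32 and 1.67 CPM in mesenchyme, 0.0818, 0.0436 and 0 CPM in epithelium and 1.22, 1.10 and 1.20 CPM in treated intestine. Cxcl1 was at 0.794, 0.441 and 0.383 CPM, 0.0409, 0 and 0 CPM and 0.531, 0.406 and 0.460 CPM in the same order. Epithelium libraries held 0 to 2 counts of either gene, with layer differences of -5.18 ± 0.60 (adjusted p = 4.21e-05) and -4.50 ± 0.74 (adjusted p = 0.000437), or -6.03 and -6.22 without epithelium replicate 1, the last against Cxcl1 libraries at 0 and so dependent on the prior count. Neither differed from mesenchyme in treated intestine past the threshold (-0.61 ± 0.41, adjusted p = 0.258, and 0.01 ± 0.44, adjusted p = 0.985). The neutrophil markers S100a8 and S100a9 belong to a list of 7 genes whose sum stayed at or below 2.71 CPM in every library.

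The 20 members below the limit were the ligands Ccl1, Ccl5, Ccl8, Ccl12, Ccl17, Ccl19, Ccl22, Ccl26, Ccl28, Cxcl2, Cxcl3, Cxcl11, Cxcl15 and Cxcl17 and the receptors Ccr3, Ccr6, Ccr8, Cxcr1, Cxcr2 and Cxcr3. Of these, 3 (Ccl17, Ccl26 and Ccr8) had 0 counts in all 9 libraries. Ccl28, a mucosal ligand of Ccr10 named here after its values were seen, had 11, 8 and 11 counts in epithelium, 0, 8 and 21 in mesenchyme and 0 in each treated library. On a floor of 3 counts over the treated group, epithelium was at least 8.5-fold and mesenchyme at least 6.96-fold higher, the latter at least 3.4-fold without mesenchyme replicate 3 and 10.4-fold without mesenchyme replicate 1. Its counts were 0 in the 4 libraries where the 14 genes described above were also at 0, and whether they share a source was not tested.

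Genes that act with the chemokines were followed in 4 lists, whose counts of called genes are to be read against the shares of all genes tested: 35.1% higher in mesenchyme and 34.6% in epithelium, and 20.5% lower and 20.8% higher in treated intestine than in mesenchyme. Of the atypical receptors and the chemokines with other names, 12 of 16 were tested, 9 higher in mesenchyme and 3 in epithelium, with 3 higher and 4 lower in treated intestine than in mesenchyme. The median log2 difference was -3.25 between layers and -0.55 for treated intestine against mesenchyme, where all genes had 0.04 and -0.02. Cx3cl1, a membrane-tethered chemokine, was epithelial, with 25.8 ± 4.57 CPM in epithelium, 1.82 ± 0.72 CPM in mesenchyme and 6.39 ± 1.62 CPM in treated intestine. Its receptor Cx3cr1, a microglia and macrophage gene, was at 1.27 ± 0.729, 15.7 ± 1.85 and 17.9 ± 2.52 CPM, so that ligand and receptor lay in opposite layers. Gpr35, a receptor once proposed to bind Cxcl17, was higher in epithelium by 4.41 ± 0.23 (adjusted p = 6.7e-07). Cmklr1, the receptor of chemerin, was at 25.5 ± 12.6 CPM in mesenchyme and 7.36 ± 1.67 CPM in treated intestine, a fall of -1.75 ± 0.48 (adjusted p = 0.0171), and Cd74, which partners antigen-presenting molecules and binds the cytokine MIF, differed by -2.37 ± 0.34 (adjusted p = 0.000717).

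Of 32 signal transduction genes downstream of the receptors 30 were tested, 20 higher in mesenchyme and 4 in epithelium; in treated intestine 13 were lower (20.5% of all genes were) and 2 higher (20.8%) than in mesenchyme. The medians of the same differences were -2.08 and -0.52. Gng2, a G protein subunit, was at 5.68 ± 2.2 CPM in epithelium, 114 ± 14.3 CPM in mesenchyme and 170 ± 13.6 CPM in treated intestine. Prex1, which couples G proteins to Rac and cell movement, fell from 73.4 ± 12 to 30.7 ± 4.49 CPM in treated intestine (log2 -1.25 ± 0.18, adjusted p = 0.000592), and the arrestin gene Arrb1 from 178 ± 50.5 to 78.0 ± 6.11 CPM (-1.18 ± 0.19, adjusted p = 0.0013). The receptor kinase genes Adrbk1 and Grk6 were below both layers in treated intestine, at 72.8 ± 1.66 and 71.5 ± 2.06 CPM (adjusted p = 0.0309 and 0.0148). These were 2 of the 30 tested, where 3.83% of all genes were called below both layers, and the other settings were not checked for them.

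Of 12 processing and presentation genes 11 were tested, 6 higher in mesenchyme and 4 in epithelium, with 5 lower and 2 higher in treated intestine than in mesenchyme, and medians of -1.39 and -0.37. Mmp9, a protease that trims chemokines, fell from 93.2 ± 25.3 CPM in mesenchyme to 5.92 ± 1.62 CPM in treated intestine (-3.98 ± 0.44, adjusted p = 0.00016), and Mmp2, which cleaves Cxcl12, from 904 ± 104 to 266 ± 14.1 CPM (-1.76 ± 0.53, adjusted p = 0.0257). Dpp4, an enzyme that clips the end of Cxcl12 and other chemokines, was epithelial, with 113 ± 29.4 CPM in epithelium, 15.4 ± 6.48 CPM in mesenchyme and 87.1 ± 3.35 CPM in treated intestine.

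Of the 34 NF-kB and inflammatory inducer genes 27 were tested, 13 higher in mesenchyme (35.1% of all genes were) and 2 in epithelium (34.6%), with 8 lower (20.5%) and 1 higher (20.8%) in treated intestine than in mesenchyme, and medians of -0.33 and -0.42. Il1b, a cytokine that induces chemokines, fell from 4.26 ± 1.38 to 0.34 ± 0.491 CPM (-3.69 ± 0.92, adjusted p = 0.0112), and Tnf from 1.87 ± 0.479 to 0.776 ± 0.166 CPM (-1.29 ± 0.39, adjusted p = 0.0254). Csf1, the growth factor that macrophages depend on, fell from 60.4 ± 7.27 to 20.4 ± 0.613 CPM (-1.56 ± 0.37, adjusted p = 0.00867). The NF-kB subunit genes Nfkb2 and Rela lay below both layers in treated intestine, at 16.7 ± 2.13 and 53.0 ± 6.25 CPM (adjusted p = 0.0126 and 0.0484), and Tlr2, a receptor for bacterial lipoproteins, lay above both at 8.26 ± 0.585 CPM (adjusted p = 0.0311). Among the 27 tested these were 2 below and 1 above both layers, where 3.83% and 1.24% of all genes were called. The other settings were not checked for these genes.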

How the data were processed

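The 9 RNA-seq libraries comprise 3 of epithelium, 3 of mesenchyme and 3 of whole intestine under Cyclopamine. TopHat2 2.0.13, the build mm9 and DESeq are named in the submitters' processing notes; the counter and its strand setting are not stated there. The authors deposited whole read counts per gene, group means of normalized counts (a signal), their ratio or fold, and p-values; deposited means equal counts over median-of-ratios size factors to within 3.73e-09.

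Counts of all 9 libraries were fitted together in edgeR 4.0.16 (R 4.3.3): genes were kept by filterByExpr (minimum count 10), libraries were scaled by TMM, and the two-sided quasi-likelihood F test was adjusted by Benjamini-Hochberg over 15699 genes, with a threshold of 0.05. The larger p of the treated contrasts was used for levels outside both layers. CPM values use TMM-scaled library sizes, and SE is the log2 difference over the square root of F. On simulated data, 104 genes were changed 2-fold and 96 were changed 4-fold, far fewer than the 69.6% of genes called between the real layers. They were drawn above a floor of mean CPM that some members do not reach, so the rates do not describe such members. For the layer contrast, 42.3% of the 2-fold and 89.6% of the 4-fold changes were recovered, with 10 false calls among 15533 genes. For a level outside both layers, 31.7% and 89.6% were recovered. Alternatives, read for the members only, were other scalings, filters, DESeq2 1.42.0, a replicate block and leaving out each library.

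Every member at or above 0.5 CPM is named, except 1 that is counted but not reported here; of each accompanying list, up to 4 genes per contrast with the largest differences past the threshold could be named, and marker genes as examples. The members and lists were chosen with earlier results of these data known. Sequences and gene order come from RefSeq on GRCm38.p6, transcript lengths and overlaps from GENCODE on the same build.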

Additional observations from a re-analysis of the deposited data

How the results depend on the processing

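Between the layers, 21 to 33 members were called over the settings tried (28 to 31 when any library was left out, 27 with the replicate block). Against epithelium, 17 to 31 were called (23 to 28 and 25). Against mesenchyme, 10 members were called in treated intestine, 5 with the term for the 4 libraries with genes at 0, which was chosen after seeing the data, 5 at an adjusted p under 0.01, and 6 to 15 when a library was left out. For a level outside both layers, 1 member was called, 2 with DESeq2, 2 without a filter on low counts (each time Ccl28 joined Cxcl13), 0 with the term, 0 at an adjusted p under 0.01, and 0 to 2 when a library was left out. In the edgeR fits that gave 0, Cxcl13 kept its direction; the cause of these changes was not tested. Same-numbered libraries had correlations of -0.202 to 0.268 between their deviations, 3 of 9 above 0.1, and differently numbered ones of -0.22 to 0.173. The 3 highest values (0.268, 0.224 and 0.194) were all same-numbered, so a pairing of some libraries is not excluded. Because the same-numbered values had both signs, the numbers were not taken to pair the libraries. The replicate block ended the layer call of Ccl27a (-0.92, adjusted p = 0.0669), added Cxcl16 against epithelium (0.41, adjusted p = 0.0417) and gave 10 called members against mesenchyme.

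Directions turned for the following members. For treated intestine against mesenchyme, Ccl27a gave -0.0099 with RLE scaling, -0.0016 with DESeq2 and -0.25 to 0.45 when a library was left out. Cxcr5 gave 0.06 with upper quartile scaling, 0.006 without a filter, 0.01 with a filter at 0.5 CPM, 0.03 with the 6 libraries compared and -0.14 to 0.12 when a library was left out. Cxcl1 gave -0.02 (RLE), -0.07 (DESeq2), -0.11 (replicate block), -0.76 (term) and -0.19 to 0.21 (library left out). Ccl6 gave 0.08 (upper quartile), 0.01 (DESeq2), 0.04 (no filter), 0.05 (0.5 CPM), 0.04 (6 libraries), 1.28 (term) and -0.54 to 0.32 (library left out). Ccr4 gave 3.23 with the term and -3.68 to 0.67 with a library left out. The value of -3.68 was without treated replicate 1, with the other treated libraries at 0, and so depends on the prior count. With a library left out, Ccl27b gave -0.37 to 0.19, Ccl21a -0.99 to 0.16, Ccl21c -0.72 to 0.08 and Ccl9 -0.06 to 0.59, and the layer difference of Ccl9 gave -0.84 to 0.0052. Against epithelium, the term gave 1.56 for Ccl25, 0.18 for Ccr4 (likewise outside both layers) and 5.46 for Ccl20, which also gave -0.68 to 0.34 with a library left out. Mesenchyme replicate 1 had 0 counts of Ccr4 and of Ccl20, so their values with the term depend on the prior count. Against epithelium, the call of Ccl27a is lost with the term (1.44, adjusted p = 0.163) and without treated replicate 2 (0.83, 0.103) or epithelium replicate 1 (1.16, 0.0576) or 2 (1.00, 0.0852), and that of Ccl27b with the term (0.13, 0.851) and without treated replicate 2 (0.88, 0.0742) or epithelium replicate 3 (1.11, 0.0503). The 3284702 counts of mesenchyme replicate 1 limit members near 1 CPM most.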
